A study of Mus musculus with 24 samples.

Results

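The ephrins, semaphorins and Slits are the ligands of 3 large families of cell guidance cues, and the Eph receptors, plexins, neuropilins and Robos are their receptors. Their messenger RNA was followed in embryonic mouse pharyngeal arches 1 and 2, the outgrowths that form the jaws and parts of the ear. Members were all genes of the counts table whose mouse symbol begins with Epha or Ephb and a digit, Efna, Efnb, Sema and a digit, Plxn, or Robo and a digit, or is Nrp1, Nrp2, Slit1, Slit2 or Slit3. The rule found 61 of 26611 genes: 14 Eph receptors, 8 ephrins, 20 semaphorins, 9 plexins, 2 neuropilins, 3 Slits, 4 Robos and Plxna4os1, a non-coding RNA named as antisense to Plxna4. The rule used names only and no measured value.

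RNA-seq libraries were made from female C57BL/6 embryos at E10.5, with 24 libraries in 6 genotype groups of 4 biological replicates. Kat6a (Moz) encodes a histone acetyltransferase and Dlx5 a homeodomain transcription factor, and the series asks what deleting either or both does to craniofacial development. The groups were wild type (Kat6a +/+, Dlx5 +/+), Kat6a +/- (Dlx5 +/+), Dlx5 +/- (Kat6a +/+), double heterozygous (Kat6a +/-, Dlx5 +/-), Dlx5 -/- (Kat6a +/+) and Kat6a -/- (Dlx5 +/+). The labels call the alleles knockouts and name no construct, and the sources used here do not say whether a library holds 1 embryo or several. Batches, in the labels, are 2 mouse facilities: batch 1 held all 4 Dlx5 -/- libraries, and batch 2 the 4 of wild type and the 4 of Kat6a -/-. Batch 2 held 3 of 4 Kat6a +/- libraries, 3 of 4 Dlx5 +/- libraries and 1 of 4 double heterozygous libraries.

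Total counts on genes ran from 10406452 to 28198111 per library, with the second highest at 16710291, and the members took 0.393% to 0.485% of them. Values are CPM, counts scaled to library size by the trimmed mean of M-values, and levels are compared between genes only as RPKM, the same value per kilobase of the deposited gene length. The deposited gene-level counts did not show the deletions. Kat6a lay at 148 to 247 CPM in wild type and 211 to 242 CPM in the libraries labelled Kat6a -/- (log2 change 0.17, SE 0.10, edgeR adjusted p = 0.474). Dlx5 lay at 69.4 ± 6.78 CPM (64.6 to 79) in wild type and a lower 62.6 ± 5.11 CPM (57.7 to 67.4) in the libraries labelled Dlx5 -/- (SD, n = 4). With the batch term that difference turned to a log2 change of 0.03 (SE 0.11, edgeR adjusted p = 0.947). Dlx5 fell by 0.87 on the log2 scale in those labelled Kat6a -/- (SE 0.08, edgeR adjusted p = 1.46e-07). Groups are therefore named by their labels throughout. The 8 neural crest mesenchyme markers summed to 1441 to 1863 CPM in every library. The 13 cranial neuron markers ranged from 44.7 to 541 CPM: replicate 2 of wild type, Kat6a +/-, Dlx5 +/- and Kat6a -/- was rich in neurons, all 4 double heterozygous libraries lay at 143 to 313 CPM, and all 4 Dlx5 -/- libraries lay at 44.7 to 63.2 CPM. Neuron-rich below means these 4 replicate 2 libraries, each more than 1 log2 unit above the rest of its group in these markers. The double heterozygous libraries are not among them. The 6 brain tissue markers lay at 29.7 to 35.1 CPM in wild type and at most 18.3 CPM in Kat6a -/-. In bulk arches, fewer cells of a type and less RNA per cell cannot be told apart.

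Ephrins are cell-surface ligands whose binding to Eph receptors on a neighbouring cell signals into both cells, mostly as repulsion that keeps cell groups apart. Class 3 semaphorins are secreted and act through neuropilins paired with plexins, whereas semaphorins of the other vertebrate classes are membrane-bound and act mostly on plexins directly. Slits are secreted repellents read by Robo receptors. In the head these cues are known for steering cranial neural crest cells into the arches, for guiding cranial nerves and for patterning vessels.

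Sema3a, a class 3 semaphorin, was the member with the smallest p in Kat6a -/- arches. Of class 3, the 4 genes Sema3d, Sema3a, Sema3e and Sema3c lie within 5.35 Mb on chromosome 5. All 4 were called with the same epithelial marker score, Sema3a only with the neuron-rich libraries kept. Sema3f, on chromosome 9, was called with it too and is not shown. The 250 bases before the RefSeq starts of the 4 genes on chromosome 5 (GRCm38, plus strand, 5′ to 3′) are shown so that they can be compared. Capitals mark CACCTG, an E-box bound by Snail-family and other factors, and everything else is in lower case. The windows are chr5:12382916-12383165 for Sema3d, chr5:13396534-13396783 for Sema3a (inside the annotated gene span, since that start belongs to a shorter transcript), chr5:14025026-14025275 for Sema3e and chr5:17574566-17574815 for Sema3c.
Sema3d: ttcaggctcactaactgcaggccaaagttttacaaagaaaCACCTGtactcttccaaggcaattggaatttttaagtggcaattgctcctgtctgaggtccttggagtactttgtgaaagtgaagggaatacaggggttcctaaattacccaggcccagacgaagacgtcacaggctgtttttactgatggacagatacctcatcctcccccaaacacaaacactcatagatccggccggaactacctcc
Sema3a: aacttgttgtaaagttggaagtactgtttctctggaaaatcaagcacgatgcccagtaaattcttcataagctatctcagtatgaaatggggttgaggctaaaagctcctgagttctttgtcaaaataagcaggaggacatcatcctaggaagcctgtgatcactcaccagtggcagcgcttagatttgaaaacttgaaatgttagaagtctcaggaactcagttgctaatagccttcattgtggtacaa
Sema3e: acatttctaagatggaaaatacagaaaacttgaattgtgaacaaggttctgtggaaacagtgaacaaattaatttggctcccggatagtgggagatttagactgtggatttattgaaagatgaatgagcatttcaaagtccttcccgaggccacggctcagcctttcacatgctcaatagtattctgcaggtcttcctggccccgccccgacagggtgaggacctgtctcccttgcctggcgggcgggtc
Sema3c: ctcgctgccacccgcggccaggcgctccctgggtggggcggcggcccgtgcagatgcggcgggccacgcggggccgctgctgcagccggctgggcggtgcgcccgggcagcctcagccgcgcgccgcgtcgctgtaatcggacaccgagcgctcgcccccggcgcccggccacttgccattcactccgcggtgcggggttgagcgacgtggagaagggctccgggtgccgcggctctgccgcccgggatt
The 4 windows differed in base composition: CpG dinucleotides numbered 4 in Sema3d, 2 in Sema3a, 7 in Sema3e and 39 in Sema3c, and G and C made up 46.8%, 40.8%, 48% and 78.4% of the bases. The median was 6 CpG over all 32851 windows of that length and 15 over the 69 windows of the 53 members that had one. Both strands were searched for CACCTG (17.2% of all windows, 10 of 69 member windows), the homeodomain site TAATTA (4.84% and 3 of 69) and the Grainyhead-like site AACCGGTT (0.116% and 0 of 69). No 2 of these motifs contain each other. Only the Sema3d window of the 4 held 1 of the 3 motifs, 1 CACCTG; a match is only a match of letters.

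In wild type arches the guidance genes ranged over more than 3 orders of magnitude, from 0.0215 RPKM for Epha6 to 78.4 ± 2.51 (SD, n = 4) for Plxnb2, with Slit3, at 7.47 RPKM, in the middle of the order. Plxnb2, a receptor of class 4 semaphorins, stood at percentile 93.3 of all tested genes. Ephb4, the receptor of ephrin-B2 on veins, followed at 66.2 ± 2.61 RPKM and Efnb2, which encodes that ephrin, at 50.9 ± 4.48 RPKM (SD, n = 4 each). The ranges of these 3 genes over the 4 libraries did not overlap. From Efnb2 down to Plxnd1 (28.8 ± 2.28) and Plxnb1 (27.7 ± 1.76), each gene overlapped the next in the order: Efna4 (39.8), Plxna1 (36), Sema4c (32.5), Ephb3 (31.8) and Efna2 (31.2) filled the ranks between.

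**Figure D1:**
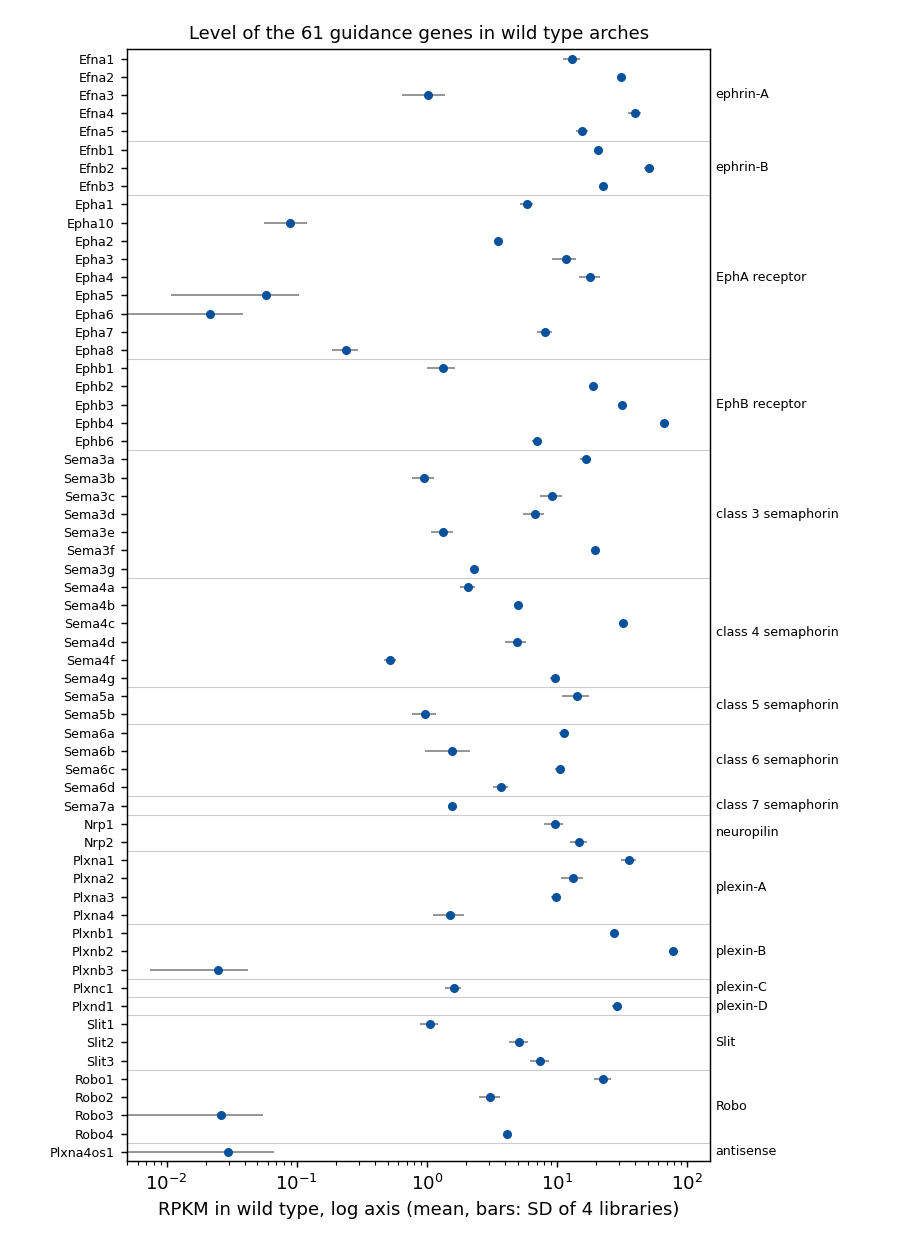
Level of the 61 members in wild type arches, as RPKM on a log axis, ordered by family. Points are means and bars SDs of 4 libraries, and a lower bar that reaches the axis edge belongs to a gene whose SD is close to or above its mean. Plxnb2, Ephb4 and Efnb2 lie highest, and Epha6, Plxnb3, Robo3 and Plxna4os1 lie near 0.0215 to 0.0298 RPKM.

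Within each family 1 or a few genes supplied most of the RNA. EphB receptors summed to 126 ± 4.89 RPKM in wild type and EphA receptors to 47.7 ± 6.53 RPKM (SD, n = 4). Ephb4 supplied 52.7% ± 0.563 of the EphB sum and Epha4 37.8% ± 2.64 of the EphA sum. The ephrin-A sum was 101 ± 6.14 RPKM, 39.3% of it from Efna4, and the ephrin-B sum was 94.2 ± 5.06 RPKM, 53.9% of it from Efnb2. The leading semaphorins were Sema3f in class 3 (34.5% of 56.8 RPKM), Sema4c in class 4 (59.4% of 54.7 RPKM), Sema5a in class 5 (93.3% of 15.4 RPKM) and Sema6a in class 6 (41.8% of 27.1 RPKM). Plxnb2 supplied 73.9% of the plexin-B sum, Plxna1 59.3% of the plexin-A sum, Nrp2 60.7% of the neuropilin sum, Robo1 75.6% of the Robo sum and Slit3 54.6% of the Slit sum. Sema7a, the lipid-anchored class 7 semaphorin, and Plxnc1, its plexin, were both low, at 1.57 ± 0.109 and 1.61 ± 0.236 RPKM.

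The low-count filter left 57 of the 61 members for testing. It removed Epha6, Plxnb3, Robo3 and Plxna4os1, which had 0 to 9 counts in every library. Plxna4os1 reads could not be told apart from those of Plxna4 unless counting used strand, which is not stated. Each test below is edgeR's quasi-likelihood test of all 14506 genes that passed, with genotype and batch in the model and Benjamini-Hochberg adjustment over all of them. A gene is called at an adjusted p under 0.05. The comparisons with wild type share the same 4 wild type libraries.

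Loss of both Kat6a alleles, by label, came with a rise of Sema3a and a fall of Ephb6 among the 57 guidance genes tested, against 1.53% of all genes called in that comparison. At an unadjusted p under 0.05 there were 15 members, 6 higher and 9 lower, which is 26.3% of those tested against 13.6% of all genes (6.56% higher, 7.02% lower). Over all 57 the log2 changes were centred near 0 (median -0.01, 28 positive), as they were over all genes (median 0.01, 51.8% positive). The families lay on different sides of it. All 7 class 3 semaphorins had positive values (median 0.29), and 7 of 8 ephrins (median -0.16) and all 5 EphB receptors (median -0.15) had negative ones. These signs describe values of which most did not pass the test. Class 3 stayed at 7 of 7 positive in all 13 other settings and all 24 fits that left out a library, ephrins at 7 or 8 of 8 negative, and EphB receptors at 4 or 5 of 5 negative. Class 3 was also positive for 6 to 7 of 7 genes in Kat6a +/- and 6 of 7 in Dlx5 +/- over those settings. With a library left out these ran from 4 to 7 and from 3 to 6. Double heterozygous arches gave 2 to 7 of 7 over the same settings, and Dlx5 -/- arches 2 to 4 over 11 settings. Over those settings, ephrins were positive for 1 to 4 of 8 genes in Kat6a +/- and EphB receptors for 1 to 2 of 5. The same counts were 5 to 8 and 3 to 4 in Dlx5 +/-, 3 to 5 and 2 to 3 in double heterozygous, and 3 to 6 and 0 to 3 in Dlx5 -/- arches.

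**Figure D2:**
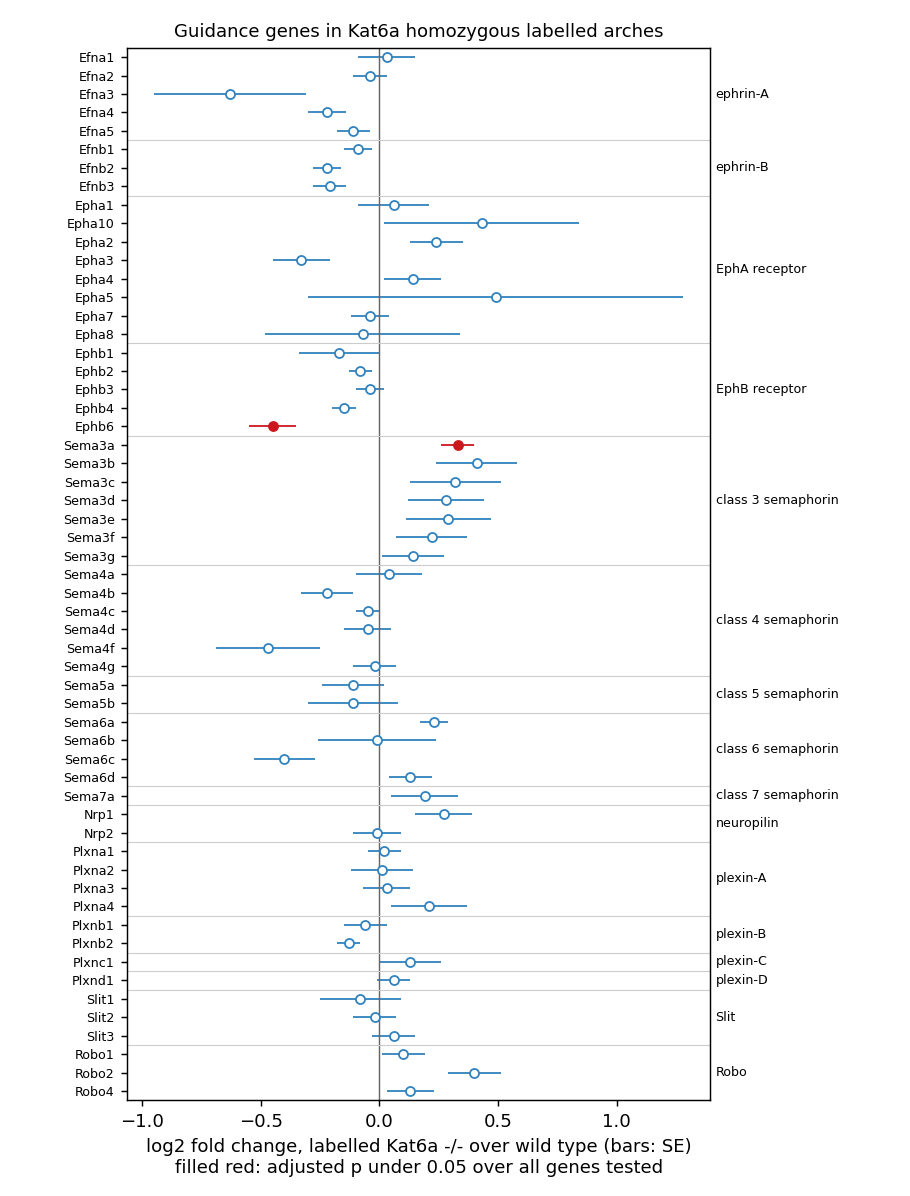
Log2 fold change of the 57 tested members in the libraries labelled Kat6a -/- against wild type, by family, with SE as bars. Filled red points have an edgeR adjusted p under 0.05: Sema3a at 0.33 and Ephb6 at -0.45. The 7 class 3 semaphorins all lie right of 0 and the 5 EphB receptors left of it.

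Sema3a (chr5:13124822-13603485, GRCm38), a secreted repellent of axons that acts through Nrp1, lay at 134, 114, 132 and 111 CPM in wild type and at 149, 144, 171 and 151 CPM in Kat6a -/-. All 4 Kat6a -/- libraries exceeded every wild type library. The log2 change was 0.33 (SE 0.07, edgeR adjusted p = 0.0169). Kat6a +/- libraries overlapped both groups, at 134, 133, 151 and 141 CPM (log2 change 0.21, SE 0.07, adjusted p = 0.287). The other groups overlapped wild type: means were 131 ± 13.9 CPM in Dlx5 +/-, 131 ± 4.17 CPM in double heterozygous and 125 ± 7.69 CPM in Dlx5 -/- (SD, n = 4). Over 13 other settings the Kat6a -/- change ran from 0.25 to 0.33 with adjusted p from 0.000842 to 0.12, and the call was lost in 4 of them, among them the correction for gene length, at 0.25. It was also lost without wild type replicate 2, wild type replicate 4 or Kat6a -/- replicate 3 (0.26 to 0.37 over all 24 libraries left out in turn, adjusted p 0.0106 to 0.0939).

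The other 6 class 3 semaphorins did not pass the test, with log2 values from 0.14 (Sema3g) to 0.41 (Sema3b). Sema3b lay at 4.12, 2.94, 2.68 and 3.45 CPM in wild type and 4.38, 4.41, 4.91 and 4.14 CPM in Kat6a -/-, so that its groups did not overlap either (log2 0.41, SE 0.17, adjusted p = 0.269). Sema3c, which guides cardiac neural crest, was at 54.2, 34.3, 50 and 43.4 CPM in wild type and 45.7, 49.2, 72.7 and 61.9 CPM in Kat6a -/-, with overlapping groups. Sema3f, the most abundant of the class, was at 65.6, 60.7, 69.8 and 68.8 CPM in wild type and 75.9, 58.2, 95.9 and 79 CPM in Kat6a -/-. Replicate 3 of Kat6a -/- held the highest value of its group for every class 3 gene but Sema3g. It also had the highest epithelium marker score of its group (0.38), whose part in these values was not tested. The summed class 3 level was 56.8 ± 5.26 RPKM in wild type and 69.2 ± 10.1 RPKM in Kat6a -/- (SD, n = 4).

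Of the membrane-bound semaphorins, 3 from class 6 and class 4 had unadjusted p under 0.05. Sema6c, whose function is less studied, lay at 30.5, 32.9, 28.4 and 27.8 CPM in wild type and 24.6, 17, 26.4 and 22.3 CPM in Kat6a -/-. The groups did not overlap, but the change did not pass (log2 -0.40, SE 0.13, adjusted p = 0.117). Sema6a, a ligand of plexin-A2 and plexin-A4, went the other way, at 85.7, 74.9, 79.2 and 72.2 CPM against 92.2, 93.8, 95.3 and 84.9 CPM (log2 0.23, SE 0.06, adjusted p = 0.0524). In class 4, Sema4f was at 2.44 to 3.03 CPM in wild type and 1.76 to 2.24 CPM in Kat6a -/- (log2 -0.47, SE 0.22, adjusted p = 0.348), while the abundant Sema4c lay at 124 ± 3.26 and 119 ± 2.88 CPM (SD, n = 4; log2 -0.05, SE 0.05). The 2 class 5 genes and Sema7a had unadjusted p above 0.05.

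Ephb6 (chr6:41603834-41620509, GRCm38), an Eph receptor without kinase activity, lay at 25.2, 24.4, 27.5 and 29.6 CPM in wild type and at 20.7, 16.5, 21.2 and 19.3 CPM in Kat6a -/-. The groups did not overlap. It fell by 0.45 on the log2 scale (SE 0.10, edgeR adjusted p = 0.0214). Kat6a +/- libraries stayed at wild type values (25.1, 23.7, 27 and 27.3 CPM), and Kat6a -/- against Kat6a +/- gave a log2 change of -0.42 (SE 0.11, adjusted p = 0.069). Over 13 other settings the change ran from -0.47 to -0.43 and the adjusted p from 0.00187 to 0.0682, with the call lost in batch 2 alone, in the 2 groups alone and without the neuron-rich libraries. It was also lost without wild type replicate 4, Kat6a -/- replicate 2 or Kat6a -/- replicate 4 (-0.50 to -0.39 over all libraries left out in turn, adjusted p 0.0116 to 0.089).

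The other EphB receptors had small negative values. Ephb4 lay at 305, 287, 279 and 283 CPM in wild type and 280.0, 251, 263 and 246 CPM in Kat6a -/- (log2 -0.15, SE 0.05, adjusted p = 0.178). Its Kat6a +/- libraries, at 271, 265, 270.2 and 272 CPM, all lay below wild type, without an unadjusted p under 0.05. Below every wild type library were also 3 of 4 libraries in double heterozygous and Dlx5 -/- arches and 2 of 4 in Dlx5 +/-. Ephb2 lay at 91.4 ± 5.79 and 86.4 ± 3.47 CPM and Ephb3 at 132 ± 9.2 and 128 ± 7.58 CPM (SD, n = 4). Among the EphA receptors, whose ligands are mostly ephrin-A proteins, Epha3 lay at 46.9, 40.3, 60.2 and 38.6 CPM in wild type and 41.7, 35.8, 34.9 and 35.5 CPM in Kat6a -/-, with overlap (log2 -0.33, SE 0.12, adjusted p = 0.204). Epha4, the EphA receptor that also binds ephrin-B ligands, did not differ beyond its spread (115 ± 20.8 and 126 ± 16.1 CPM, SD, n = 4).

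No ephrin was called in Kat6a -/-, and 3 of 8 had an unadjusted p under 0.05, all lower. Efnb2 came closest: its libraries lay at 225, 226, 236 and 192 CPM in wild type and 193, 184, 199.9 and 178 CPM in Kat6a -/-, overlapping only through wild type replicate 4 (log2 -0.22, SE 0.06, edgeR adjusted p = 0.0501). Efnb2 passed in 20 of the other fits, which were 13 settings and 24 with a library left out. Efnb3 did not overlap, at 70.6, 74.4, 72.6 and 74.1 CPM against 65.8, 56.8, 69.1 and 59.9 CPM (log2 -0.21, SE 0.07, adjusted p = 0.12). Efna4, the most abundant ephrin-A, lay at 55.8, 62.7, 62.4 and 72.9 CPM against 53, 46, 61.3 and 56.8 CPM with overlap (log2 -0.22, SE 0.08, adjusted p = 0.199). The summed ephrin-B level was 94.2 ± 5.06 RPKM in wild type and 82.7 ± 5.42 RPKM in Kat6a -/-, and the ephrin-A sum 101 ± 6.14 and 92.9 ± 5.38 RPKM (SD, n = 4).

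Receptors of the semaphorins and Slits had no called gene in Kat6a -/-. Plxnb2 lay at 537, 508, 509.8 and 499 CPM in wild type and 484, 453, 494 and 453 CPM in Kat6a -/-, just without overlap (log2 -0.13, SE 0.05, adjusted p = 0.213). The plexin-A genes, Plxnc1 and Plxnd1, the receptor of Sema3e, had unadjusted p above 0.05. Nrp1, the co-receptor of Sema3a, was at 56.8 ± 9.49 CPM in wild type and 68.6 ± 9.12 CPM in Kat6a -/- (SD, n = 4; log2 0.27, SE 0.12, adjusted p = 0.313), while Nrp2 was level at 120.1 ± 17.5 and 119.8 ± 10.6 CPM. Robo2 lay at 24.3, 24.8, 30.5 and 19.4 CPM in wild type and 28.2, 37, 32 and 33.5 CPM in Kat6a -/-, where 3 of 4 libraries exceeded every wild type library (log2 0.40, SE 0.11, adjusted p = 0.0743). The Slits lay between -0.08 and 0.06 on the log2 scale.

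In all, 7 of the 57 members had Kat6a -/- and wild type groups without overlap, 2 higher (Sema3a, Sema3b) and 5 lower (Efnb3, Ephb6, Plxnb2, Sema4f, Sema6c). Among all 14506 genes 6.4% did (2.87% higher, 3.54% lower). Both groups lay wholly in batch 2, and within that batch the Sema3a change was 0.32 and the Ephb6 change -0.46, neither of them called. Brain tissue markers, given above, were lower in every Kat6a -/- library. The branchiomeric muscle score, the mean log2 deviation of 6 markers, was also lower, at -0.40 to -0.17 against 0.06 to 0.24 in wild type, although the summed level of these markers overlapped (47.8 to 64.2 against 51.4 to 64.4 CPM), and none of either list was at 0. The part of these markers in the values was not tested. A fit with the epithelium marker score as a covariate was added after the data were seen. It gave a Sema3a change of 0.31 (SE 0.05) and an Ephb6 change of -0.46 (SE 0.09), both called. Both genes also rose with that score among libraries, and its part in these changes was not tested.

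**Figure D3:**
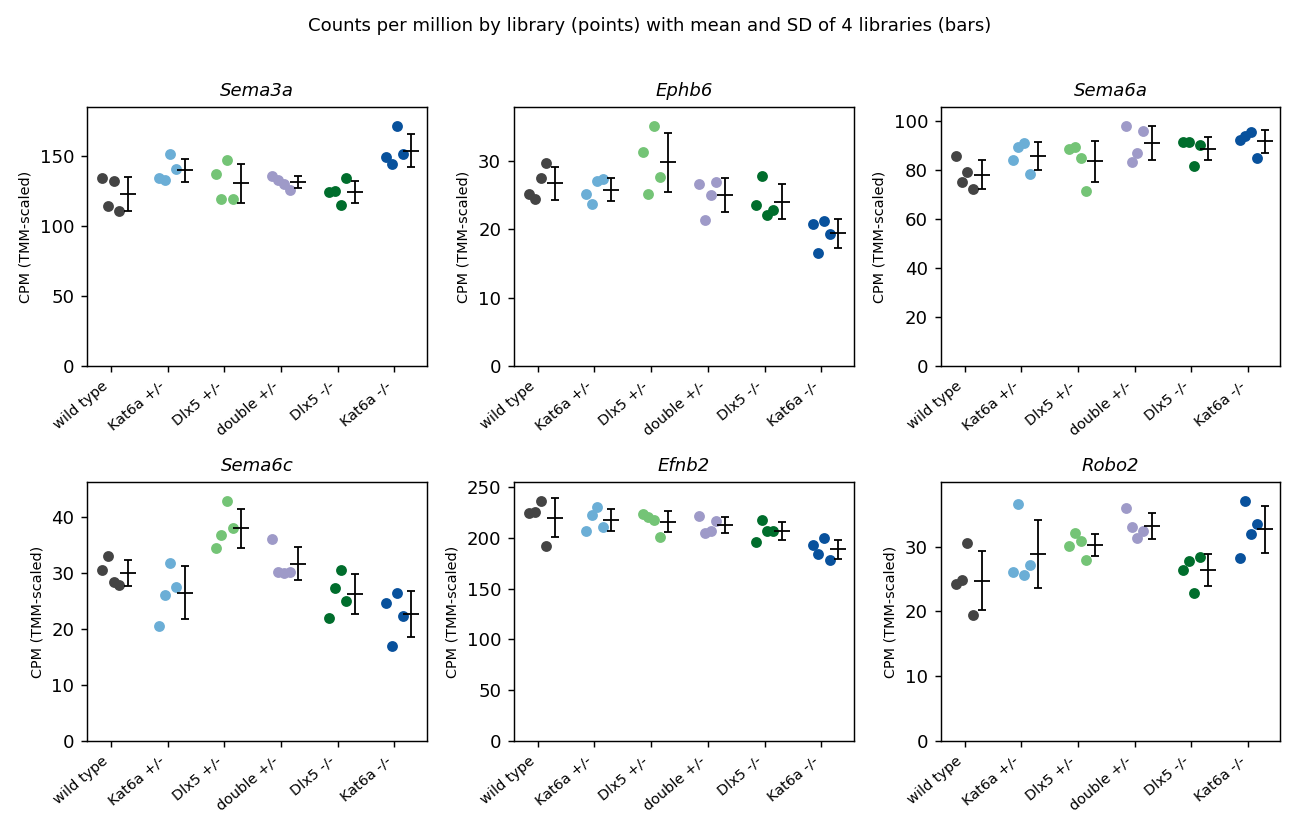
CPM of 6 guidance genes in each of the 24 libraries (points), with the mean and SD of each genotype group beside them (bars), on axes from 0. Kat6a -/- libraries lie above all wild type libraries for Sema3a and below them for Ephb6 and Sema6c. Sema6c is highest in Dlx5 +/-.

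Against the Kat6a +/- group, which asks what the second Kat6a allele adds, edgeR called 0 members in Kat6a -/- (0.641% of all genes were called). At an unadjusted p under 0.05 there were 12 members, 11 of them lower, which is 21.1% of those tested against 9.92% of all genes (5.26% lower). DESeq2 called 3 of the members (and 144 of all genes) and limma voom 5 (and 367 of all genes). Epha3 (log2 -0.48, SE 0.12, adjusted p = 0.0842), Efnb2 (-0.23, SE 0.06, adjusted p = 0.0719) and Ephb6 stood nearest to the threshold. With the replicate number as a block, 1 member, Ephb6, was called. All 7 class 3 semaphorins had positive values, from 0.10 to 0.31, but only 4 of 7 did without Kat6a -/- replicate 3 and 6 of 7 without Kat6a -/- replicate 2 or Kat6a +/- replicate 1.

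In Kat6a +/- arches, where 1 allele is lost, edgeR called 0 members and 0 of all genes (0%), and limma voom also called 0 of both. DESeq2 called 72 genes and none of the 43 members it gave an adjusted p. At an unadjusted p under 0.05 there were 9 members, all higher, or 15.8% of those tested against 11.4% of all genes, of which 5.29% were higher. Epha10, a receptor without kinase activity, was the farthest from 0 (log2 1.46, SE 0.37, adjusted p = 0.149). Its values were low, at 0.43, 0.736, 0.432 and 0.336 CPM in wild type and 0.875, 2.22, 0.955 and 1.07 CPM in Kat6a +/-, with all 4 Kat6a +/- libraries above every wild type library. All 4 libraries also exceeded every wild type library in Dlx5 +/- (0.836 to 1.47 CPM) and double heterozygous arches (0.821 to 1.35 CPM). Dlx5 -/- and Kat6a -/- libraries overlapped wild type. Sema6a was at 83.8, 89.3, 90.8 and 78.3 CPM in this group, overlapping wild type (log2 0.18, SE 0.06, adjusted p = 0.277).

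Dlx5 +/- arches gave the same count: edgeR called 0 members and 0 of all genes (0%), and DESeq2 and limma voom also called 0 members (and 30 and 9 of all genes). There were 14 members at an unadjusted p under 0.05, all higher, or 24.6% of those tested against 11.3% of all genes, of which 5.75% were higher. They came from every kind of gene but the ephrins and neuropilins: 7 were semaphorins, 3 Eph receptors, 3 Slits or Robos and 1 a plexin. Sema6c lay at 34.4, 36.7, 42.7 and 37.9 CPM, above every wild type library (log2 0.36, SE 0.12, adjusted p = 0.282). Sema5b, a semaphorin with thrombospondin repeats, lay at 5.13, 3.19, 4.32 and 5.13 CPM in wild type and 6.79, 7.57, 6.9 and 5.43 CPM in Dlx5 +/-, also without overlap (log2 0.61, SE 0.19, adjusted p = 0.247). Sema4g was at 42.6, 39.8, 38.4 and 45.2 CPM in wild type and 51.4, 45.9, 60 and 48.4 CPM in Dlx5 +/- (log2 0.31, SE 0.09, adjusted p = 0.247), and Sema3f at 87.7, 69.1, 118 and 76.8 CPM with wide spread.

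In double heterozygous arches, which lack 1 allele of each gene, Sema6a was the single member called of 57, where 0.448% of all genes were. Its libraries lay at 85.7, 74.9, 79.2 and 72.2 CPM in wild type and 97.6, 83.1, 86.8 and 95.6 CPM in the double heterozygotes, with 3 of 4 above every wild type library (log2 0.37, SE 0.07, edgeR adjusted p = 0.0221). The call was lost in 7 of 13 other settings, in which the change ran from 0.22 to 0.37 and the adjusted p from 0.00216 to 0.568. It was lost with the replicate number as a block (0.34, adjusted p = 0.0637 there), with no batch term (0.22) and without any 1 of wild type replicates 2 and 4, Kat6a +/- replicate 4, Dlx5 +/- replicate 4 and double heterozygous replicates 1 and 4 (0.33 to 0.41 over all libraries left out in turn, adjusted p 0.0181 to 0.31). Only 1 double heterozygous library shared a batch with wild type. Neuron markers were higher in all 4 double heterozygous libraries than in 3 of 4 wild type libraries. With the neuron score in the model the change was 0.36 and was no longer called.

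Other members of the double heterozygous comparison did not pass, and 11 had an unadjusted p under 0.05, 10 of them higher (19.3% of those tested, 13% of all genes, 6.62% higher). Robo2 lay at 36, 33, 31.4 and 32.5 CPM, above every wild type library (log2 0.53, SE 0.14, adjusted p = 0.0806). Robo1, the main Robo of the arches, lay at 192, 175, 187 and 133 CPM in wild type and 233, 188, 175 and 204 CPM in the double heterozygotes (log2 0.34, SE 0.11, adjusted p = 0.156). Nrp1 was at 69.2 ± 4.76 CPM (SD, n = 4; log2 0.50, SE 0.15, adjusted p = 0.13) and Ephb1 at 4.65 ± 0.503 CPM against 6.23 ± 1.51 CPM in wild type (log2 -0.62, SE 0.21, adjusted p = 0.185).

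The non-additive part is what remains of the double heterozygous difference from wild type once both single heterozygous differences are taken away, and it asks whether the 2 losses add up. edgeR, DESeq2 and limma voom each called 0 members, and edgeR called 0.00689% of all genes. At an unadjusted p under 0.05 there were 4 members, all negative: Epha10 (log2 -1.49, SE 0.51), Plxna3 (-0.34, SE 0.14), Sema4g (-0.30, SE 0.13) and Slit3 (-0.30, SE 0.12), with adjusted p from 0.877 to 0.888. That is 7.02% of those tested against 5.4% of all genes (2.45% negative).

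In Dlx5 -/- arches edgeR called 0 members (0.0551% of all genes were called), and DESeq2 and limma voom each called 1, Sema6a (and 39 and 17 of all genes). At an unadjusted p under 0.05 there were 6 members of 57, all higher, against 9.97% of all genes, of which 4.68% were higher. Sema6a lay at 91.2, 91.2, 81.5 and 90.2 CPM, with 3 of 4 libraries above every wild type library (log2 0.38, SE 0.08, edgeR adjusted p = 0.0895). Sema7a lay at 5.69, 6.27, 6.6 and 7.02 CPM, above every wild type library (4.71 to 5.45 CPM; log2 0.42, SE 0.19, adjusted p = 0.483). Epha4 was at 133 ± 17.2 CPM and Robo1 at 188 ± 19.1 CPM (SD, n = 4), both overlapping wild type. No Dlx5 -/- library shared a batch with wild type, so the comparison rests on a batch term estimated from the 3 heterozygous groups and has no within-batch value. The batch term itself called 0 members (0.0345% of all genes), with 4 at an unadjusted p under 0.05 (6.51% of all genes), and for Sema6a it was 0.20 (SE 0.06) higher in batch 2.

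A test of any difference among the 6 genotypes called 3 of 57 members, against 1.39% of all genes. These were Sema6c (edgeR adjusted p = 0.0137), Ephb6 (adjusted p = 0.0251) and Sema6a (adjusted p = 0.042). Sema6c (chr3:95160420-95174050, GRCm38) had its lowest mean in Kat6a -/- (22.6 ± 4.05 CPM) and its highest in Dlx5 +/- (37.9 ± 3.49 CPM), with wild type between them (29.9 ± 2.32 CPM, SD, n = 4). The Kat6a -/- and Dlx5 +/- ranges lay on opposite sides of the wild type range. Kat6a +/- (26.4 ± 4.66 CPM), Dlx5 -/- (26.2 ± 3.61 CPM) and double heterozygous libraries (31.6 ± 2.97 CPM) overlapped it. At an unadjusted p under 0.05 the test gave 18 members, or 31.6% of those tested against 15.1% of all genes, among them all 3 ephrin-B genes. Plxnc1, Plxnd1, Plxna1, Nrp2 and Sema5a were among the members with no such p, and Plxna1, the main plexin-A, ranged only from 319 ± 23.2 to 343 ± 13.7 CPM in group mean (SD, n = 4).

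Some guidance genes varied with the level of epithelial markers among libraries, as many other genes did. An epithelium score, the mean log2 CPM of 8 markers (Epcam, Cdh1, Krt8, Krt18, Krt5, Trp63, Cldn6 and Grhl2) relative to the mean of all libraries, was added to genotype and batch in a fit chosen after the data were seen. The 8 markers summed to 379 to 515 CPM in wild type and 429 to 611 CPM in Kat6a -/-, none was at 0, and every group spanned a range that overlapped wild type. Of the 57 members, 20 were called with this score, 14 higher and 6 lower. That is 35.1% of those tested against 26.4% of all genes (12.3% higher, 14.1% lower). The total share is not far from the background, but higher calls outnumbered lower ones among members and not among all genes.

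**Figure D4:**
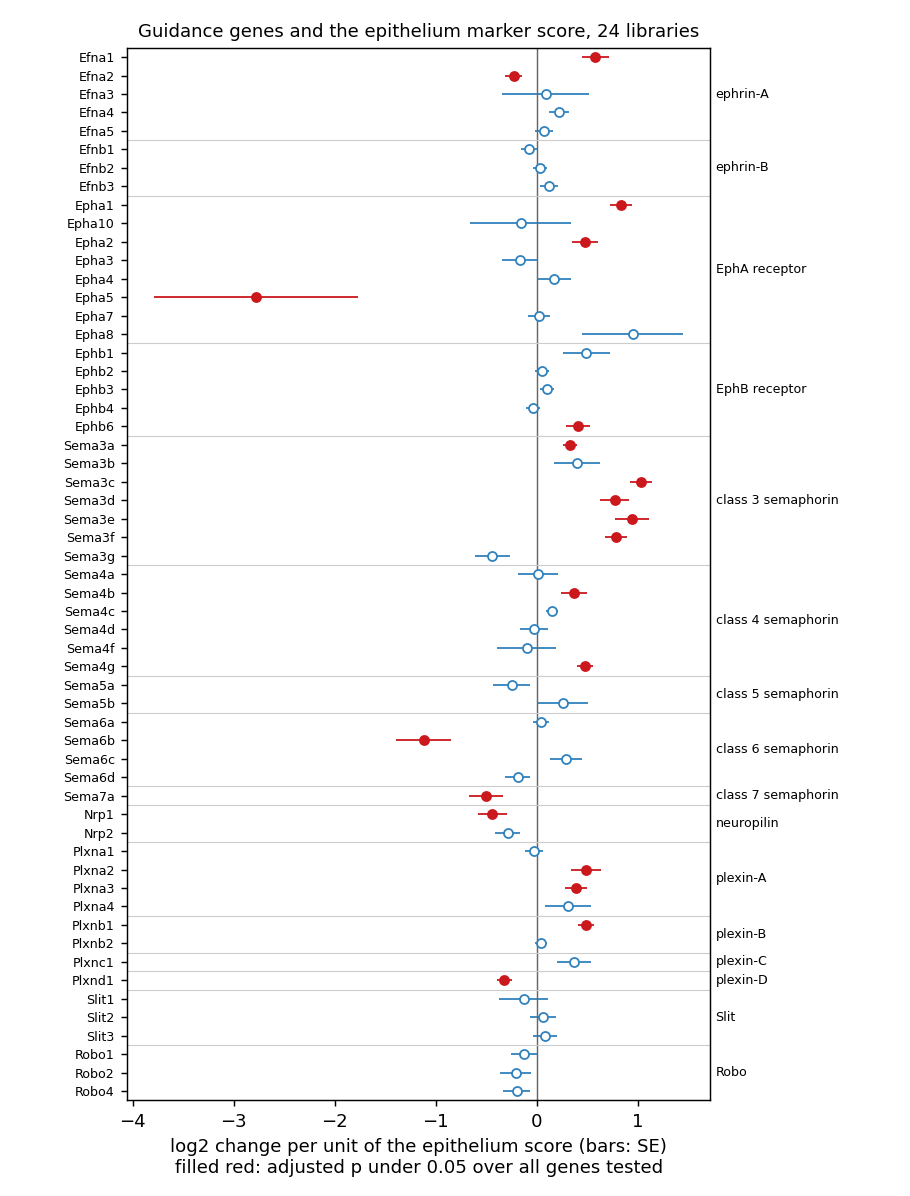
Log2 change of the 57 tested members per unit of the epithelium score, from the fit with genotype and batch over 24 libraries, with SE as bars. Filled red points have an edgeR adjusted p under 0.05: 5 of 7 class 3 semaphorins lie to the right, and Nrp1 and Plxnd1 to the left. Epha5, the point farthest left, has fewer than 2 CPM in every library.

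Class 3 semaphorins were spread over the members called. Sema3c rose by 1.03 per unit of score (SE 0.11, edgeR adjusted p = 4.32e-07), Sema3e by 0.94 (SE 0.17), Sema3f by 0.78 (SE 0.11), Sema3d by 0.77 (SE 0.14) and Sema3a by 0.33 (SE 0.07), so 5 of 7 class 3 genes were called, all higher. Sema3b and Sema3g were not. Epha1, an epithelial Eph receptor, rose by 0.83 (SE 0.11, adjusted p = 1.5e-05), Efna1, its ligand, by 0.58 (SE 0.13), Epha2 by 0.48 (SE 0.13) and Ephb6 by 0.41 (SE 0.12). Plxna2, Plxna3, Plxnb1, Sema4b and Sema4g rose by 0.37 to 0.49. On the other side Nrp1 fell by 0.44 (SE 0.14), Plxnd1 by 0.32 (SE 0.07), Sema7a by 0.50 (SE 0.17), Efna2 by 0.23 (SE 0.08) and Sema6b by 1.12 (SE 0.27). Robos and Slits gave 0 called genes of 6. Members named here and not above were chosen after their values were seen.

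**Figure D5:**
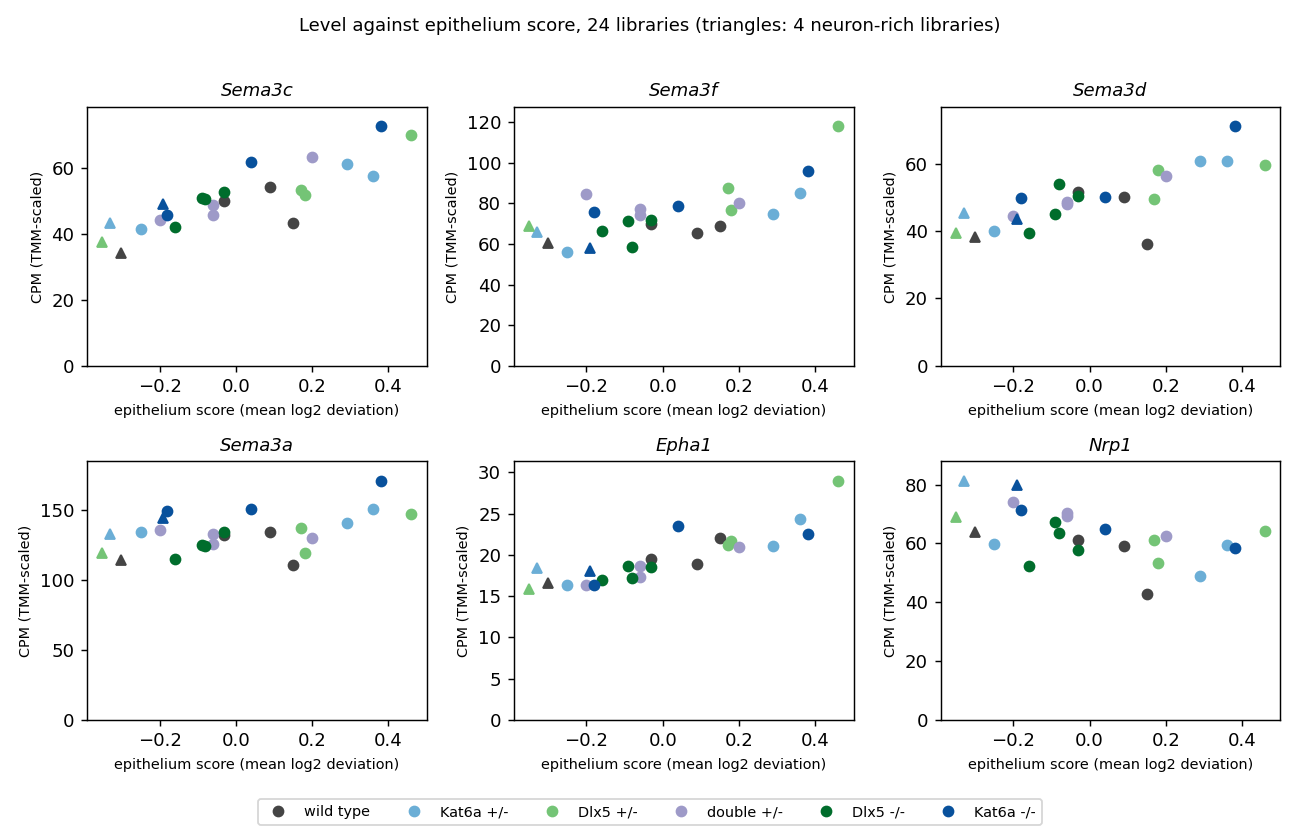
CPM of 6 guidance genes (vertical axes from 0) against the epithelium score of each library (horizontal axes, mean log2 deviation of 8 markers), coloured by genotype. Triangles are the 4 neuron-rich libraries, which lie at -0.19 or below. Sema3c, Sema3f, Sema3d and Epha1 run upward and Nrp1 downward, and the Kat6a -/- points for Sema3a lie above the other groups at a similar score.

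The 4 neuron-rich libraries had low epithelium scores, -0.35 to -0.19, but neuron and epithelium scores did not go together throughout. Double heterozygous replicates 3 and 4 had neuron scores of 1.70 and 1.83, above the 1.49 of Kat6a -/- replicate 2, with epithelium scores of 0.20 and -0.06, and Kat6a +/- replicate 1 had a neuron score of -1.31 with an epithelium score of -0.25. Without the 4 neuron-rich libraries 7 members were called with the epithelium score (Epha1, Plxnb1, Sema3c, Sema3d, Sema3e, Sema3f and Sema4g), where 8.71% of all genes were. With each library left out in turn 13 to 22 members and 17.2% to 29.9% of all genes were called, the fewest members without Dlx5 +/- replicate 2 (19.1% of all genes). Dlx5 +/- replicate 3 had the highest score, 0.46, and the highest Sema3f (118 CPM) and Epha1 (29 CPM), while Dlx5 +/- replicate 2 had the lowest score, -0.35, and 69.1 and 15.9 CPM. A neuron score in the same kind of fit called 3 of 57 members, all higher, against 2.48% of all genes (2.27% higher): Epha5 (0.82 per unit, SE 0.11), Sema6b (0.29, SE 0.04) and Nrp1 (0.10, SE 0.03). Epha5, an EphA receptor of the nervous system, was at 0.982, 1.66, 1.16 and 1.53 CPM in the 4 neuron-rich libraries and at 0 to 1.32 CPM in the other 20. The highest of the other 20 was double heterozygous replicate 4, with its neuron score of 1.83. An endothelium score called 0 members by edgeR, where 0.0138% of all genes were called. There were 6 members at an unadjusted p under 0.05 (Efna4, Plxnb1, Sema3d, Sema3f, Sema4g and Sema6c), all negative, against 9.44% of all genes (5.65% negative).

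Other guidance systems were read from 3 lists beside the members. These lists were drawn up with earlier results of these data known, so their counts and medians are not independent of the data. The netrin and RGM list held Ntn1, Ntn3, Ntn4, Ntn5, Ntng1, Ntng2, Dcc, Neo1, Unc5a, Unc5b, Unc5c, Unc5d, Dscam, Draxin, Rgma and Rgmb. Of its 15 tested genes 3 fell in Kat6a -/- and none rose, where 1.53% of all genes were called: Rgmb by 0.64 on the log2 scale (SE 0.10, edgeR adjusted p = 0.000291), Rgma by 0.39 (SE 0.08, adjusted p = 0.0108) and Ntng2 by 0.87 (SE 0.18, adjusted p = 0.0107). Rgma and Rgmb encode membrane-anchored proteins that bind neogenin, and Ntng2 a membrane-anchored relative of netrins. Rgmb lay at 23.9, 27.6, 24.6 and 21.8 CPM in wild type and at 14.6, 16.6, 17.7 and 13.8 CPM in Kat6a -/-, with no overlap, while Kat6a +/- stayed at 21.5, 28.2, 26.2 and 21.4 CPM. The list's median was -0.30 against 0.01 for all genes, with 3 of 15 positive. Rgmb was called in all 13 other settings and all 24 fits with a library left out, whereas Rgma lost its call in 2 settings (adjusted p up to 0.0985) and Ntng2 in 3 (up to 0.127).

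In Kat6a -/- arches, 1.53% of all genes were called against wild type. Of 29 tested intracellular effectors of Eph, plexin and Robo receptors, such as the Nck, Vav, Dpysl, Mical and Srgap genes, 1 fell and none rose there. It was Dpysl4, a collapsin response mediator protein of the family that relays Sema3a signals inside growth cones. Its libraries lay at 36.6, 61.6, 41 and 39.8 CPM in wild type and 26.4, 29.8, 25.9 and 25.4 CPM in Kat6a -/-, without overlap. The neuron-rich replicate 2 held the highest value in both groups, and also in Kat6a +/- (58.6 CPM) and Dlx5 +/- (57.8 CPM). Dpysl4 fell by 0.73 on the log2 scale (SE 0.14, adjusted p = 0.00816), and by 0.87 against Kat6a +/- (SE 0.14, adjusted p = 0.00254). The call against wild type was lost in 2 of 13 other settings, batch 2 alone and the groups alone (adjusted p up to 0.0666). Of 13 tested other ligands and co-receptors, such as Vegfa and L1cam, none was called in any comparison, and the list's median in Kat6a -/- was 0.16 with 11 of 13 positive. Against wild type, edgeR called no gene of the 3 lists in Kat6a +/-, Dlx5 +/-, double heterozygous or Dlx5 -/- arches. It called 0% to 0.448% of all genes there. At an unadjusted p under 0.05 there were 1 to 2 netrin and RGM genes, 0 to 2 effectors and 1 to 3 other ligands. Of all genes, 9.97% to 13% had such a p in these comparisons.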

How the data were processed

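RNA from pharyngeal arches 1 and 2 was sequenced as stranded mRNA libraries (TruSeq Stranded mRNA LT), per the labels' protocols. The authors called bases with CASAVA 1.8.2 and counted reads per gene with featureCounts on mm10, per the submitters' processing notes, and deposited raw read counts per gene with gene lengths. Aligner, annotation release and strand setting: not given in the sources used here. Of 27179 entries, 568 had no gene ID; they took 0.182% to 0.259% of counts and were left out. The 26611 gene IDs were matched to symbols by the RefSeq gene table, 25275 of them with success, and counts on unmatched genes were 0.573% of the total.

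The 24 libraries were grouped by genotype label. Genes passing edgeR's expression filter (14506) were fitted with edgeR 4.0.16 (R 4.3.3) by quasi-likelihood, with TMM scaling and terms for genotype and batch in 1 fit (common biological coefficient of variation 0.0896, residual degrees of freedom 17). P-values were adjusted over all genes tested, and a gene was called under 0.05. Log2 changes are those of edgeR's fit at its default prior count. A prior count of 2 was used only for log2 CPM, as in the marker scores. The code was tested on simulated data with 200 changed genes. DESeq2 1.42.0, limma 3.58.1 voom, other scaling, filters, covariates and samples were alternatives. A depth of 10406452 to 28198111 counts limits precision for the lowest genes, such as Epha5, Epha8 and Epha10.

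Members and lists were chosen with earlier results of these data known. Values are given for members called in any comparison or in the test of any genotype, the most abundant member of each family and the 12 members with the smallest p in that test. From the other pathway lists, called genes are named. Further members at an unadjusted p under 0.05, and those named for their marker scores, were added after their values were seen.

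Replicate numbers are shared across groups. Deviations of same-numbered libraries from their group means, after the batch term, correlated across genes at 0.151 to 0.656 in the 4 pairs of Kat6a +/- and wild type, which were taken as paired on that ground alone. The highest was that of the neuron-rich replicate 2 libraries, and the other 3 lay at 0.151 to 0.194. In each other comparison at least 1 pair lay at 0.1 or below. Kat6a -/- gave 0.27, 0.617, 0.389 and 0.0673 with Kat6a +/- and 0.0949, 0.569, 0.149 and 0.303 with wild type, values as high in part. Replicate 4 of Kat6a +/- lay in batch 1 and replicate 4 of wild type in batch 2, so that pair came from different facilities. Promoter windows and coordinates are from RefSeq on GRCm38. Of the members, 53 had a window. Protein sequences were not used here.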

Additional observations from a re-analysis of the deposited data

Results flagged for a closer look

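In groups of 4 libraries, a library was singled out when its gap to the nearest other took up more of the group's range than Dixon's 95% critical value allows. Of 156 groups of named members examined, 13 met this, where chance gives about 1 in 20. All values are CPM.

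Replicate 2 of Kat6a +/-, a library rich in neuron markers, held 4 of them, all above the other 3 libraries of its group. Epha10 was 2.22 (others 0.875 to 1.07), Nrp2 149 (others 117 to 122), Robo2 36.6 (others 25.6 to 27.2) and Sema5a 203 (others 166 to 172). Replicate 1 of Kat6a +/- was low for Efnb3, at 66.2 (others 73 to 73.8), and for Sema5b, at 3.32 (others 5.64 to 5.95).

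Wild type replicate 4 was low for Nrp2, at 93.9 (others 127 to 130.5), and for Sema4c, at 119 (others 125 to 126). In Dlx5 -/-, replicate 3 was low for Robo1, at 159 (others 196 to 198), and for Sema6a, at 81.5 (others 90.2 to 91.2), and replicate 2 was high for Nrp2, at 121 (others 97.8 to 101). Kat6a -/- replicate 1 was high for Epha3, at 41.7 (others 34.9 to 35.8), and double heterozygous replicate 1 was high for Sema6c, at 36 (others 29.9 to 30.2).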

How the results depend on the processing

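None of the counts of called members or the changes of single genes tracked here (Sema3a, Ephb6, Rgma, Rgmb, Ntng2 and Dpysl4 in Kat6a -/-, Sema6a in the double heterozygotes) reversed. The Kat6a -/- median over all 57 members, -0.01, ran from -0.04 to 0.01 over the 13 other settings. With a library left out it ran from -0.04 to 0.04. In some fits 1 EphB receptor turned positive. Counts of called members that moved by more than 1.5 times were as follows, and the cause was not tested. For Kat6a -/- against wild type (2 called), DESeq2 and limma voom gave 5 each, the neuron score and the length correction 4 each and the epithelium score 6, in fits that called 1.75% to 3.02% of all genes against 1.53%. Batch 2 alone, the 2 groups alone and the fit without the neuron-rich libraries gave 0 each, all with fewer samples and with 0.46% to 0.653% of all genes called. For double heterozygous arches (1 called), DESeq2 and the epithelium score gave 2 each (1.17% and 1.92% of all genes against 0.448%), and 0 were called with no batch term, in batch 2 alone, in the groups alone, with the replicate block, with the neuron score, without the neuron-rich libraries and with the length correction (0.06% to 0.947% of all genes). For Dlx5 -/- (0 called), DESeq2 and limma voom gave 1 each (0.3% and 0.117% of all genes against 0.0551%). For Kat6a -/- against Kat6a +/- (0 called), DESeq2 gave 3, limma voom 5, the epithelium score 2, and the groups alone, the replicate block, the neuron score and the length correction 1 each (0.23% to 2.53% of all genes against 0.641%). For any genotype (3 called), DESeq2 gave 10, limma voom 7 and the epithelium score 7 (4.01% to 4.28% of all genes against 1.39%), and batch 2 alone 0 (0.447%). With the epithelium score as the tested term (20 called), the fit without the neuron-rich libraries gave 7 (8.71% of all genes against 26.4%). The block fit, with numbers taken as pairs only between Kat6a +/- and wild type, gave 0 called there, as without it. It gave 3 for Kat6a -/- against wild type, with Efnb2 added.

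With each library left out in turn, called members numbered 1 to 3 in Kat6a -/- (1 without wild type replicate 2 or 4 or Kat6a -/- replicate 2), 0 to 2 in double heterozygous, 0 to 1 in Dlx5 -/- (1 without its replicate 3), 0 to 1 for Kat6a -/- against Kat6a +/- (1 without wild type replicate 3 or 4 or Kat6a +/- replicate 1), 1 to 6 for any genotype (6 without Kat6a +/- replicate 1; 1 without Dlx5 +/- replicate 1 or Kat6a -/- replicate 1 or 2) and 13 to 22 with the epithelium score. Of all genes, those fits called 0.833% to 3.03% in Kat6a -/-, 0.00682% to 1.15% in double heterozygous and 0% to 0.109% in Dlx5 -/-. For Kat6a -/- against Kat6a +/- the share was 0.341% to 0.867%, for any genotype 0.724% to 1.81% and with the epithelium score 17.2% to 29.9%. In Kat6a +/-, Dlx5 +/- and the non-additive part, 0 members were called throughout, and at most 1.34%, 0.00683% and 0.00683% of all genes. The length and epithelium alternatives were chosen after seeing the data. Members are long, at a median of 4726 bases against 2022 for all genes, and Dlx5 -/- has no value within batch 2.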
